A study of Mus musculus with 10 samples.

Results

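Mitochondrial ribosomal protein genes, named Mrpl for the large subunit and Mrps for the small subunit, were followed across 5 groups of mouse embryonic stem cells. Members were the rows of the deposited count table that hold a symbol made of Mrpl or Mrps and a number, with an optional letter, and without pseudogene names. The rule found 83 of 50273 rows, and after rows of the same name were summed there were 78 members. Of these, 68 had a single row naming 1 gene, 2 (Mrps28 and Mrps30) were spread over several rows, and 8 shared their row with another gene. The 10 libraries fall into 5 groups of 2. WT and KO cells both carry floxed Mof alleles (Mof fl/fl) and the inducible Cre recombinase (Cre-ER TM), with C57BL/6J as the strain, so that WT is not an unmodified line. The protocol for that line was ethanol or 100 nM 4-hydroxytamoxifen for 3 days, and which of these each group received is not stated. Control, ETO and Released are E14tg2a cells, an established mouse embryonic stem cell line. Control received water and ETO received etomoxir, both for 4 days, and Released cells were then kept for another 4 days without etomoxir. All groups grew in 2i/LIF medium, in which inhibitors of MEK and GSK3 together with the cytokine LIF hold cells in the ground state. Etomoxir blocks carnitine palmitoyltransferase, the gate for long-chain fatty acids into mitochondria, and Mof (gene Kat8) is a histone acetyltransferase. The labels call the replicates biological duplicates without naming separate cultures, so every p-value here rests on the variation among such duplicates, which may be technical.

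The mitochondrial ribosome makes the respiratory chain subunits that mitochondrial DNA encodes. Its 2 ribosomal RNAs are transcribed in the organelle, whereas all of its proteins are encoded in the nucleus, made in the cytosol and imported. Part of the set descends from bacterial ribosomal proteins, and part occurs only in mitochondria. Embryonic stem cells in the ground state respire as well as ferment glucose, so the set belongs to a machinery in use in these cells.

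Library totals were 10562067 to 13326172 normalised counts, which correspond to an estimated 9783249 to 16779174 reads, and 3 reads were worth 2.07 to 4.04 normalised counts. Replicates of a group differed by a median of 0.105 (Released) to 0.183 (WT) on the log2 scale over all tested genes. Kat8, the targeted gene, was found in WT at 433 and 357 normalised counts and in KO at 222 and 205, a change of -0.88 ± 0.11 (adjusted p = 3.64e-05), so its RNA was lower but still present in the KO libraries. Embryonic stem cell markers were abundant throughout: all 8 had a row, and their summed level was 55023 to 63616 normalised counts in every group except ETO, where it was 38159 and 40208. Markers of other cell types were low in Control and higher in ETO. Trophectoderm markers summed to 71.6 to 101.3 in Control and 393 to 450.0 in ETO, mostly Krt7, while the defining genes Elf5 and Hand1 were near 0 and Cdx2 was lower. Primitive endoderm markers summed to 79.3 to 82.0 against 319 to 328, mostly Gata4 and Gata6, with Sox17 at 8.20 or less. Fibroblast markers summed to 98.0 to 99.6 against 180.2 to 184.8, mostly Col1a1, with Col3a1 at 2.20 or less. In bulk RNA, fewer cells of a type and less RNA per cell cannot be told apart.

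The set was broadly lower in ETO. Of the 77 tested members, 58 were lower in ETO than in Control and 1 was higher (limma, adjusted p under 0.05), whereas 34.0% of all tested genes were lower and 26.8% higher. The median log2 change of the members was -0.41, a 1.33-fold lower level, against -0.09 for all tested genes. Summed over all 78 members, the Control libraries held 56391 and 55902 normalised counts, the ETO libraries 39938 and 40317, and the Released libraries 56833 and 57133. Both ETO libraries lay below both Control libraries for 71 members, which was also so for 45.8% of all tested genes. Markers of other cell types moved with this comparison, as given above, and their part in the result was not tested. Under the 3 other scalings of the libraries, the median of all genes in ETO moved to between 0.00 and 0.07. The members' median was 0.31 to 0.32 below it under the deposited scaling and all 3 others. A scaling shifts all genes of a library alike, so this gap could hardly move and is no separate support. Under the 3 others, 44 to 53 members were lower, against 25.17% to 29.33% of all tested genes.

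**Figure D1:**
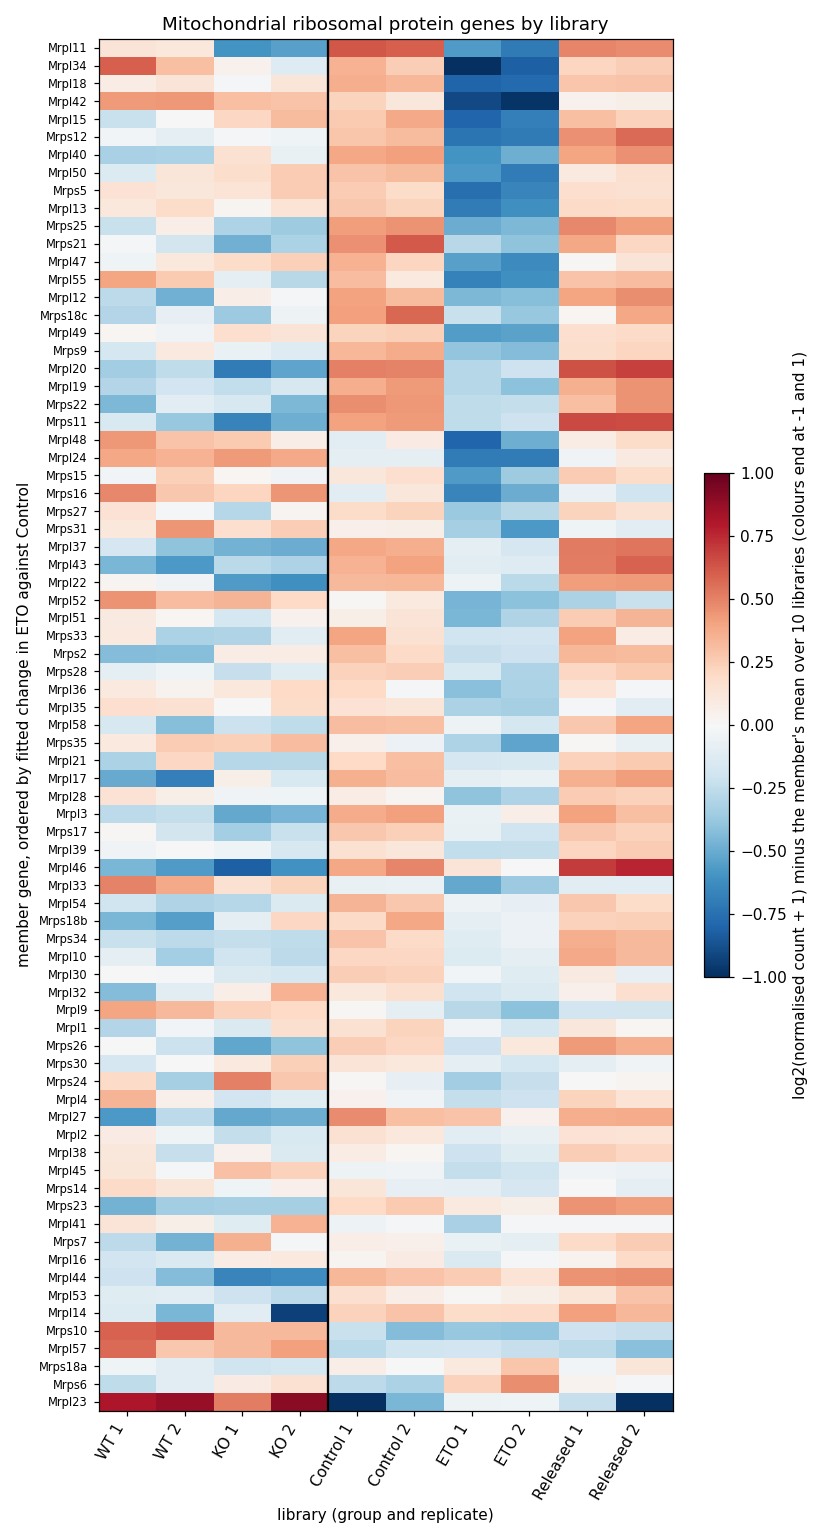
Each row is 1 of the 77 tested members and each column 1 of 10 libraries; colour gives log2(normalised count + 1) minus the member's mean over the 10 libraries, and rows are ordered by the fitted change in ETO against Control. The 2 ETO columns are blue in most rows, while the Control and Released columns beside them are mostly red; the line separates the 2 experiments.

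Most of the largest falls were in the large subunit, which also holds most of the members. Mrpl11, a protein of the stalk base where translation factors dock, was found in WT at 719 and 708 normalised counts, in KO at 435 and 450.3, in Control at 1014 and 995, in ETO at 443 and 403, and in Released at 921 and 910.5. Both ETO libraries were below all Control and Released libraries, and both KO libraries were below both WT libraries. Its change in ETO was -1.25 ± 0.08 (log2 change ± SE, adjusted p = 2.52e-09), or 2.38-fold lower. Mrpl34, a small protein shared with bacteria, was found in WT at 541 and 442 normalised counts, in KO at 369 and 327, in Control at 456 and 424, in ETO at 173 and 203, and in Released at 416 and 425. ETO was again the lowest group with no overlap, and the change was -1.23 ± 0.12 (adjusted p = 2.94e-07). Mrpl42, a protein found only in mitochondrial ribosomes, was found in Control at 885 and 817 normalised counts, in ETO at 404 and 383, and in Released at 781 and 786, a change in ETO of -1.11 ± 0.08 (adjusted p = 5.75e-09). Mrpl18, a protein of the large subunit's central protuberance, was found in Control at 769 and 753 normalised counts, in ETO at 342 and 348, and in Released at 723 and 727, a change in ETO of -1.14 ± 0.08 (adjusted p = 9.47e-09). For both genes the Released libraries lay between Control and ETO, and much closer to Control. Mrpl15 was found in Control at 1396 and 1521 normalised counts, in ETO at 673 and 725, and in Released at 1437 and 1371, and it changed by -1.06 ± 0.09 (adjusted p = 3.84e-08). Its Released libraries overlapped the Control range, so that only ETO stood apart. In the small subunit the largest fall was that of Mrps12, which lies at the decoding centre. It was found in Control at 557 and 569.8 normalised counts, in ETO at 276 and 279.8, and in Released at 628 and 678, with a change in ETO of -1.02 ± 0.09 (adjusted p = 7.19e-08). From the deposited FPKM values, Mrps12 changed less: the ratio of group means gave a log2 change of -0.56, against -1.02 from normalised counts. These 6 members were the ones called at least 2-fold lower in ETO. Lack of overlap with Control was a condition for naming the largest falls.

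**Figure D2:**
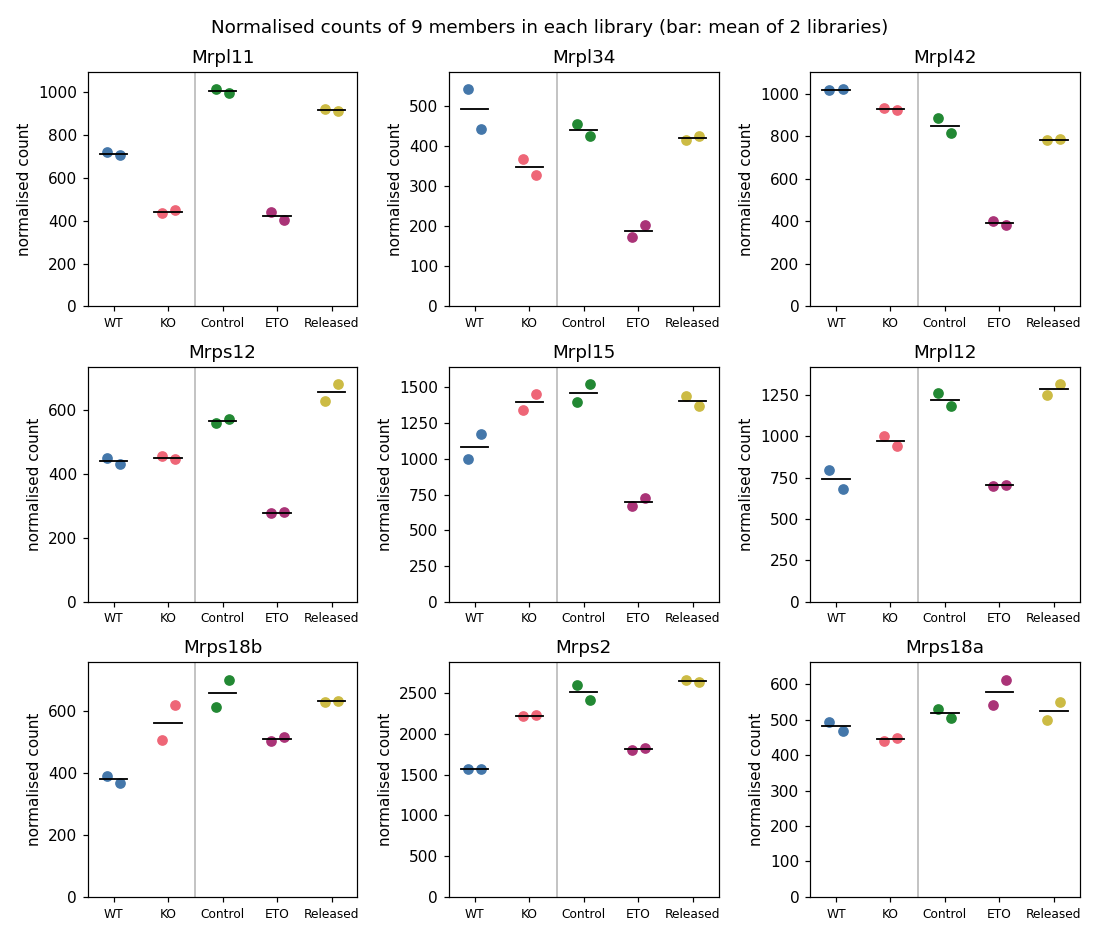
Normalised counts of 9 members in each of the 10 libraries, with a bar at the mean of each group of 2; the vertical line separates the 2 experiments. Mrpl11, Mrpl34, Mrpl42, Mrps12 and Mrpl15 are lowest in ETO among the E14tg2a groups, Mrpl12, Mrps18b and Mrps2 are higher in KO than in WT, and Mrps18a shows no called change.

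Both subunits and both evolutionary classes took part. In the large subunit 40 of 51 tested members were lower and none higher in ETO, with a median log2 change of -0.41. In the small subunit 18 of 26 were lower and 1 was higher, with a median of -0.47. Of proteins shared with bacteria, 25 of 30 were lower in the large subunit and 10 of 15 in the small one. Of proteins specific to mitochondria, 15 of 21 and 8 of 11 were lower. The difference between these classes was not tested. Among the other members with large falls were Mrpl40 (-0.94 log2 change), Mrpl50 (-0.93), Mrps5 (-0.93) and Mrpl13 (-0.91). Mrpl45, which ties the ribosome to the inner membrane beside the exit tunnel, changed by only -0.18 ± 0.07 (adjusted p = 0.0352). That call was lost under 12 of 22 alternatives. Mrpl58, a peptidyl-tRNA hydrolase that became a structural protein, changed by -0.41 ± 0.10 (adjusted p = 0.00248). Mrps30, a large subunit protein despite its name, changed by -0.26 ± 0.08 (adjusted p = 0.0117).

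Members can also be read by their place in the structure, a grouping chosen after the values were seen. At the exit tunnel, where the new chain leaves the large subunit, Mrpl24 was found in WT at 1648 and 1600.2 normalised counts, in KO at 1693 and 1637, in Control at 1178 and 1176, in ETO at 773 and 776, and in Released at 1228 and 1342. Its ETO libraries were the lowest of all 10, with a change in ETO of -0.60 ± 0.07 (adjusted p = 1.48e-06). Mrpl47, the counterpart of bacterial L29, was found in WT at 412 and 456 normalised counts, in KO at 480.4 and 501, in Control at 539.7 and 491, in ETO at 289.6 and 272, and in Released at 426 and 463, and it changed by -0.87 ± 0.10 (adjusted p = 1.43e-06) in ETO. Mrpl17, also of this region, was found in Control at 1788 and 1734 normalised counts, in ETO at 1313 and 1335, and in Released at 1785 and 1863, a change in ETO of -0.41 ± 0.08 (adjusted p = 0.000384), and Mrpl22 was found in Control at 303 and 304 normalised counts, in ETO at 232 and 199, and in Released at 322 and 325, a change in ETO of -0.49 ± 0.11 (adjusted p = 0.00139). For all 4 genes the ETO libraries lay below both Control and both Released libraries. These 4 are not a full list of the region. Mrpl45, beside the tunnel, changed by only -0.18, and its call was lost under many alternatives, as given above. In the central protuberance, the knob of the large subunit that faces the small one, Mrpl40 was found in WT at 727 and 731 normalised counts, in KO at 1013 and 865, in Control at 1189 and 1211, in ETO at 602 and 649, and in Released at 1201 and 1251. ETO was the lowest group and WT the next, and the change in ETO was -0.94 ± 0.08 (adjusted p = 9.87e-08). Mrpl46 (-0.37 log2 change) and Mrpl58 (-0.41) of the same region were also lower, while Mrpl38 was found in Control at 1056 and 1018 normalised counts, in ETO at 868 and 920.0, and in Released at 1189 and 1160.1 and missed the threshold at -0.21 ± 0.10 (adjusted p = 0.0732). Both ETO libraries of Mrpl38 were nevertheless below both Control libraries. In the small subunit, Mrps5 was found in WT at 1016 and 992 normalised counts, in KO at 1013 and 1094, in Control at 1099 and 1043, in ETO at 545 and 582, and in Released at 1034 and 1023, a change in ETO of -0.93 ± 0.07 (adjusted p = 3.45e-08), and all 8 libraries outside ETO lay close together. Mrps25, found only in mitochondrial ribosomes, was found in WT at 548 and 671 normalised counts, in KO at 517 and 499.8, in Control at 852 and 874, in ETO at 453 and 468, and in Released at 890.1 and 856, a change in ETO of -0.91 ± 0.09 (adjusted p = 6.01e-07). Its WT and KO libraries were also below those of Control. Mrps27, a pentatricopeptide repeat protein, was found in Control at 814 and 836 normalised counts, in ETO at 553 and 591, and in Released at 836 and 796, a change in ETO of -0.53 ± 0.10 (adjusted p = 0.000261).

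The stalk, which recruits the translation factors that use GTP, holds Mrpl10, Mrpl11 and Mrpl12. Mrpl12 was found in WT at 795 and 681 normalised counts, in KO at 999.6 and 939, in Control at 1258 and 1183, in ETO at 697 and 707, and in Released at 1252 and 1313. The ETO libraries lay within the range of the WT libraries, and KO lay between WT and Control. Its change in ETO was -0.80 ± 0.08 (adjusted p = 6.32e-07). Mrpl10, the scaffold of the stalk, was found in WT at 989 and 831 normalised counts, in KO at 916 and 877, in Control at 1216 and 1214, in ETO at 959 and 982, and in Released at 1368 and 1317, a change in ETO of -0.32 ± 0.08 (adjusted p = 0.00268). The 3 stalk genes were all lower in ETO, by unequal amounts, and the difference between them was not tested.

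The 3 vertebrate versions of the S18 protein differed in their calls. Mrps18b was found in WT at 391 and 367 normalised counts, in KO at 505 and 620.1, in Control at 614 and 701, in ETO at 502 and 515, and in Released at 629.9 and 633, and its change in ETO was -0.37 ± 0.10 (adjusted p = 0.0061). Mrps18c, whose row also holds Gm43511, changed by -0.79 ± 0.15 (adjusted p = 0.000256). Mrps18a, which sits in the large subunit, was found in Control at 532 and 505 normalised counts, in ETO at 542 and 614, and in Released at 499 and 551, a difference of 0.15 ± 0.09 (adjusted p = 0.166). Both ETO libraries were above both Control libraries, but 1 of them was below a Released library, and no change was called. The test of the difference between these versions was not run.

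The 18 members that were neither called lower nor higher in ETO include several close to 0. Mrps10 differed by -0.06 ± 0.09, Mrpl57 by 0.02 ± 0.12 and Mrpl14 by -0.07 ± 0.20 (log2 change ± SE). Mrpl4, Mrps24, Mrps26 and Mrps33 also missed the threshold, with differences between -0.47 and -0.23. Mrpl23, at 13.2 to 60.2 normalised counts per library, differed by 0.78 ± 0.33 (adjusted p = 0.0536), and its pseudogene Mrpl23-ps1 held more counts (105 to 242) than the gene did, so its value is uncertain. Mrpl48 has the same limit: Mrpl48-ps held 86.4 to 148 normalised counts against 59.4 to 139.8 for the gene. Mrps36, now known as a subunit of the alpha-ketoglutarate dehydrogenase complex and not of the ribosome, had at most 11.1 normalised counts and was not tested.

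The only member called higher in ETO was the row of Mrps6, found in WT at 424 and 466 normalised counts, in KO at 534 and 560.3, in Control at 420.5 and 405, in ETO at 593 and 698, and in Released at 519 and 502. Both ETO libraries were above every other library of this row, and the change was 0.64 ± 0.10 (log2 change ± SE, adjusted p = 3.18e-05). That row also holds Slc5a3, the myo-inositol transporter, which lies within the same interval (Mrps6 at chr16:92058270-92112227, plus strand, GRCm38, GENCODE M21), so the reads of the 2 genes cannot be told apart. With the 8 shared rows left out, 53 of 69 members were lower in ETO and 0 were higher.

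**Figure D3:**
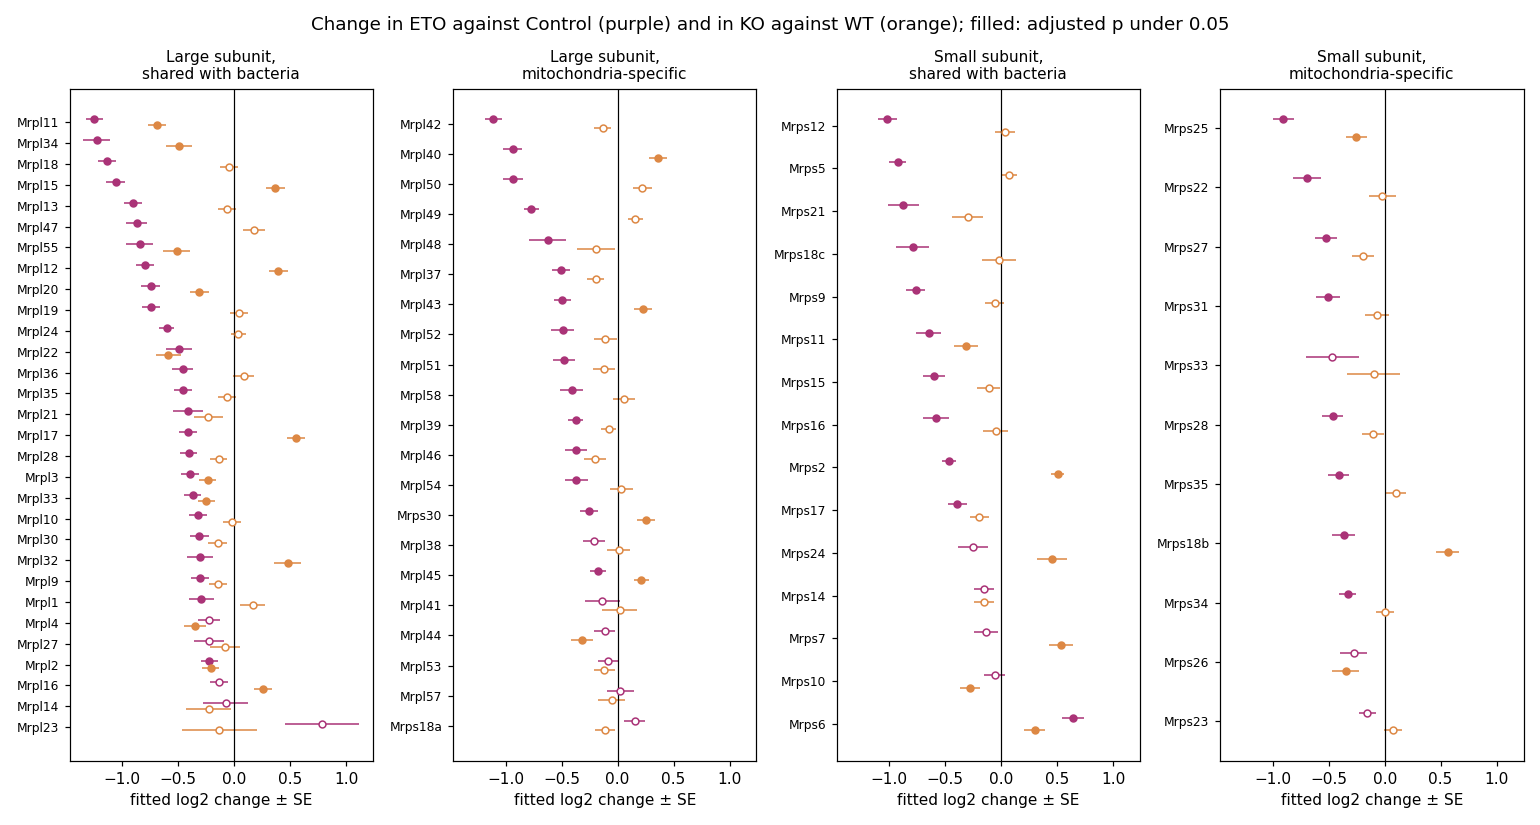
Fitted log2 change ± SE of each tested member in ETO against Control (purple) and in KO against WT (orange), in 4 classes by subunit and origin; filled points have an adjusted p under 0.05. Most purple points lie left of 0 in all 4 classes, with 58 filled, and orange points lie on both sides, with 14 filled on each.

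Promoter sequences are shown for members at the ends of this range, since a large part of the set moved together. RefSeq windows of 300 bases (250 before to 50 after the start site, GRCm38.p6) were found for 69 of the 78 members, 75 windows in all. Matches on either strand to 3 short motifs are in capitals: the ETS core CCGGAAG, the NRF1 motif GCGCATG and the YY1 core AAGATGG. No 2 different motifs of these overlapped in a member window. Mrpl11 (chr19:4962056-4962355, plus strand) and Mrpl34 (chr8:71464676-71464975, plus strand) had the largest falls in ETO and also fell in KO. Mrpl42 (chr10:95501900-95502199, minus strand) and Mrps12 (chr7:28741772-28742071, minus strand) fell in ETO and were not called in KO. Mrpl32 (chr13:14612988-14613287, minus strand) fell in ETO and rose in KO, and Mrps18a (chr17:46110754-46111053, plus strand) was called in neither. Mrps11 (chr7:78782881-78783180, plus strand) is shown because it shares its promoter with another member.
Mrpl11 promoter: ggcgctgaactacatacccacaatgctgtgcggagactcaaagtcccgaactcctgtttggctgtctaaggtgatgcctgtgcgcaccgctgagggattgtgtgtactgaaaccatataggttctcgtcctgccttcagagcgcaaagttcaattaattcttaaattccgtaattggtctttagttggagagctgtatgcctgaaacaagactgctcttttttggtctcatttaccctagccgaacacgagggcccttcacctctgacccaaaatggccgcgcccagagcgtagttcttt
Mrpl34 promoter: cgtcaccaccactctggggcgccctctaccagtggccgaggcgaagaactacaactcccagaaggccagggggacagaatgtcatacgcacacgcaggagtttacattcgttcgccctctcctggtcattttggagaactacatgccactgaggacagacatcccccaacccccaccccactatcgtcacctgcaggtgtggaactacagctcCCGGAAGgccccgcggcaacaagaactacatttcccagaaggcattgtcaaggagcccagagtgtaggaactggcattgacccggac
Mrpl42 promoter: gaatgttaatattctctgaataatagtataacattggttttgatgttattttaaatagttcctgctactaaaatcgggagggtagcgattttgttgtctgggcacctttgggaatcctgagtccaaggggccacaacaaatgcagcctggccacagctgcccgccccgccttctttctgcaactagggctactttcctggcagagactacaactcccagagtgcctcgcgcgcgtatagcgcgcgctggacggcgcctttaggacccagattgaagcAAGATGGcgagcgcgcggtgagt
Mrps12 promoter: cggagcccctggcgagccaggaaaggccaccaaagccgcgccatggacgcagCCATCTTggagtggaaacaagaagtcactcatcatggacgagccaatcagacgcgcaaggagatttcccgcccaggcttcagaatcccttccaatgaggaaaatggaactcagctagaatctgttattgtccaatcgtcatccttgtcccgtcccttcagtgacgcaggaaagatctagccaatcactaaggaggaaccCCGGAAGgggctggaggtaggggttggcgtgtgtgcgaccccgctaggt
Mrpl32 promoter: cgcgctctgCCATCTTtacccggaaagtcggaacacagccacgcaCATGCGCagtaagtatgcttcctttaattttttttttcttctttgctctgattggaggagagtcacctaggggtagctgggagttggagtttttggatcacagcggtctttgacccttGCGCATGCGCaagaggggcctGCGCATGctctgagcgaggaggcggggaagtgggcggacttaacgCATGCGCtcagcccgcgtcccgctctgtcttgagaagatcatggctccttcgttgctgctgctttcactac
Mrps18a promoter: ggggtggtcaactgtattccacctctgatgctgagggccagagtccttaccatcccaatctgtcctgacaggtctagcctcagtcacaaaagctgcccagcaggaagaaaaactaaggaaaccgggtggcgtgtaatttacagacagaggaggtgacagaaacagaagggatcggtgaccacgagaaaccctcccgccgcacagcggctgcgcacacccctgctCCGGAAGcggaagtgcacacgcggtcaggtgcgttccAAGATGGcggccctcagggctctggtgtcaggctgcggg
Mrps11 promoter: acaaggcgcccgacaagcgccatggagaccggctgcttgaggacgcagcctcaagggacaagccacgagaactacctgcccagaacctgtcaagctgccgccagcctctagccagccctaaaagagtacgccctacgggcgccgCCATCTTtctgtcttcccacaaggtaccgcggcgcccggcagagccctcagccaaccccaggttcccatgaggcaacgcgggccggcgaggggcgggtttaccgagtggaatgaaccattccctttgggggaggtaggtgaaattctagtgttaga

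The motifs were more frequent in member promoters than in all 32851 windows. Those windows were not limited to tested genes, and whether promoters of expressed genes at large differ in the same way was not tested. The ETS core was in 34.67% of member windows against 8.86% of all windows, the YY1 core in 17.33% against 6.34%, and the NRF1 motif in 10.67% against 3.91%. At least 1 of the 3 was present in 38 of 75 member windows (50.67%) and in 17.46% of all. Mrpl11, with the largest fall, has none of them in its window. Mrps18a, with no called change, has an ETS core starting at -26 and a YY1 core at 12 from the start site. Mrpl32 has 5 NRF1 motifs, 2 of which overlap each other as a palindrome at -87 and -84. The ETS core was in 19 of 57 windows of members lower in ETO (33.33%) and in 7 of 18 windows of the others (38.89%). The YY1 core was in 10 of 57 and 3 of 18, the NRF1 motif in 8 of 57 and 0 of 18, the E-box CACGTG in 7 and 0, and the ERR motif AAGGTCA in 4 and 0. Whether motifs differ between these windows was not tested. Of other motifs searched on both strands, the GC box GGGCGG was in 52.0% of member windows and 35.66% of all, CCAAT in 40.0% and 37.41%, and the E-box CACGTG in 9.33% and 7.15%. The ERR motif AAGGTCA was in 5.33% and 4.72%, TATAAA in 6.67% and 13.62%, and TGATGNAA, the ATF4 composite element, in 0% and 3.97%. A match is a run of letters, not evidence that a factor binds there.

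Mrps11 and Mrpl46 start 42 bp apart on opposite strands of chromosome 7, and their windows share 141 of 300 bases. Mrps11 was found in WT at 264 and 225 normalised counts, in KO at 184 and 209, in Control at 388 and 394, in ETO at 246 and 253, and in Released at 465 and 462. Mrpl46 was found in WT at 334 and 309 normalised counts, in KO at 259.6 and 301, in Control at 600.0 and 643, in ETO at 501 and 460.0, and in Released at 746 and 777. Both were lower in ETO than in Control and highest in Released, with ETO changes of -0.65 ± 0.11 and -0.37 ± 0.10 (log2 change ± SE). Neighbours were then sought as protein-coding genes on the opposite strand whose GENCODE M21 gene start lay within 1000 bp upstream. Of the 78 members, 18 (23.08%) had one, compared with 6.79% of all protein-coding genes and 9.6% of the tested ones. Mrps11 and Mrpl46, whose start sites above are those of the RefSeq windows, are not among these 18. Of the 18 partners, 8 (44.44%) were lower in ETO and 2 (11.11%) higher, against 34.0% and 26.8% of all tested genes. Mrps12 and Sars2, the mitochondrial seryl-tRNA synthetase, start 172 bp apart, and Sars2 changed by -0.60 (adjusted p = 3.30e-05). Mrps27 and Ptcd2 start 81 bp apart and changed by -0.53 each. Ska3, which encodes a kinetochore protein and starts 49 bp from Mrpl57, changed by -0.69 (adjusted p = 8.37e-06), and Mrpl57 was not called; the difference between them was not tested.

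After etomoxir was removed, the set rose again. Relative to ETO, 60 of 77 members were higher in Released and 1 was lower, against 33.1% and 24.6% of all tested genes, and the median log2 change was 0.45 against 0.10. This comparison shares the ETO libraries with the one above, so the 2 are not independent. The largest rises were those of Mrps12 (1.23 ± 0.09 (log2 change ± SE, adjusted p = 1.10e-08)), Mrpl34 (1.16), Mrpl11 (1.12), Mrpl18 (1.07), Mrpl15 (1.01) and Mrpl42 (0.99). From FPKM the release change was 0.69 for Mrps12 and 1.39 for Mrpl18, so the order depends on the deposited table. Of the 58 members lower in ETO, 53 (91.4%) were called higher on release and not called between Released and Control, as were 75.4% of all tested genes lower in ETO; the comparisons share libraries, so such a pattern is favoured for any gene. The other 5 were Mrpl52, Mrpl30, Mrpl9, Mrpl1 and Mrps30, whose rises on release were 0.08 to 0.17 and were not called. Both ETO libraries lay below both Control and both Released libraries for 70 members, and for 38.9% of all tested genes. The member called lower was the row of Mrps6 and Slc5a3, at -0.34 ± 0.10 (adjusted p = 0.00749). That direction was not kept by the FPKM values, which gave 0.06.

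Released and Control differed little. Of 77 members, 1 was higher and 1 lower in Released, against 7.03% and 5.51% of all tested genes, and the median difference was 0.01. Mrpl52, a mitochondria-specific large subunit protein, was found in Control at 353 and 374 normalised counts, in ETO at 253 and 263, and in Released at 281 and 300.0. Its Released libraries were between ETO and Control without overlap, and it was -0.32 ± 0.10 (adjusted p = 0.0482) against Control. The row of Mrps6 was higher by 0.31 ± 0.10 (adjusted p = 0.0497). Both calls lie next to the threshold and were lost under 11 of 22 alternatives for Mrpl52 and 10 of 21 for Mrps6; with each library scaled to the same total signal, 2 members were higher and 0 lower. All other members missed the threshold, with fitted differences from -0.29 to 0.29. A missed threshold does not show that the levels were equal.

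**Figure D4:**
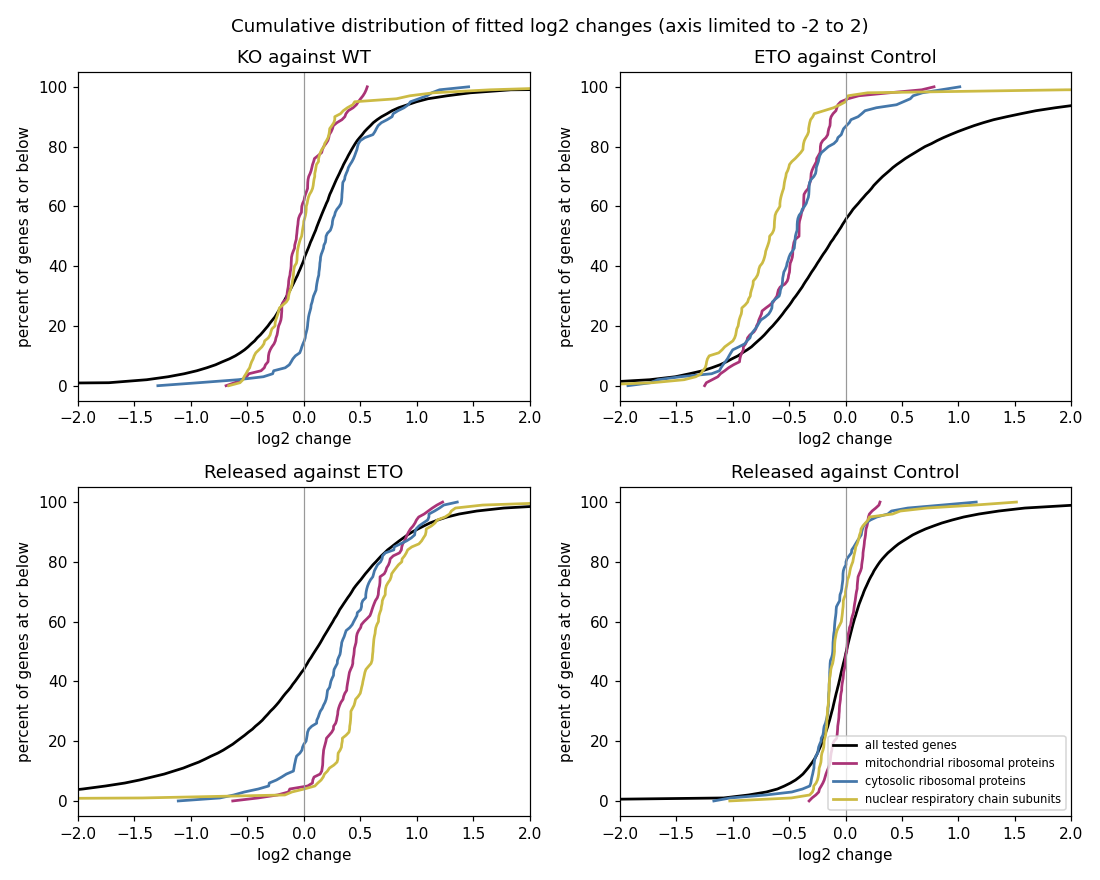
Cumulative share of genes (percent, vertical axis) at or below a fitted log2 change (horizontal axis, limited to -2 to 2) for all 16056 tested genes, the 77 mitochondrial ribosomal protein members, 82 cytosolic ribosomal proteins and 81 nuclear respiratory chain subunits, in 4 comparisons. The member curve has its median at -0.41 in ETO against Control, 0.45 in Released against ETO, 0.01 in Released against Control and -0.06 in KO against WT.

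In the Mof knockout the members moved in both directions and by less. Of 77 members, 14 were higher and 14 lower in KO than in WT, against 24.6% and 13.3% of all tested genes, and the median log2 change was -0.06, compared with 0.08 over all genes. This split depends on the scaling: it was 9 higher and 22 lower with median-of-ratios or TMM factors, and 6 higher and 35 lower with equal total signal. The median of all genes moved from 0.08 to -0.08 under equal total signal. The members' median was 0.15 to 0.16 below it under all 4 scalings. That gap is no separate support, since a scaling shifts all genes of a library alike. With WT and KO fitted apart from the other groups, 8 members were higher and 4 lower, against 17.7% and 9.6% of all tested genes. No member changed by 2-fold. Without KO replicate 1 the number lower was 5, without WT replicate 1 it was 9, and without KO replicate 2 the number higher was 9.

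Of the 14 members lower in KO, 9 were large subunit proteins shared with bacteria, a class that holds 30 of the 77 tested members; the difference between classes was not tested. Mrpl11 led with -0.69 ± 0.08 (log2 change ± SE, adjusted p = 1.28e-05). Mrpl22, which lines the exit tunnel, was found in WT at 246 and 236 normalised counts and in KO at 163 and 157, a change of -0.59 ± 0.11 (adjusted p = 0.000887). Both KO libraries were below both WT libraries, as the rule for naming the largest falls required. Mrpl55 was found in WT at 289 and 263 normalised counts and in KO at 206 and 181, a change of -0.51 ± 0.12 (adjusted p = 0.00412), and Mrpl34 changed by -0.49 ± 0.12 (adjusted p = 0.00427). These 4 were the ones called lower under all 22 alternatives. The others were Mrpl4 (-0.35), Mrps26 (-0.35), Mrpl44 (-0.32), Mrps11 (-0.31), Mrpl20 (-0.31), Mrps10 (-0.28), Mrps25 (-0.25), Mrpl33 (-0.25), Mrpl3 (-0.24) and Mrpl2 (-0.21). Mrpl44, related to bacterial RNase III, was among the 4 members lower in KO but not called in ETO, with Mrpl4, Mrps10 and Mrps26.

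The members higher in KO came from both subunits. Mrps18b had the largest rise, 0.56 ± 0.10 (log2 change ± SE, adjusted p = 0.000619), and its KO libraries (505 and 620.1) differed from each other by more than its WT libraries (391 and 367). Mrpl17, at the exit tunnel, was found in WT at 984 and 868 normalised counts and in KO at 1456 and 1258, a change of 0.55 ± 0.08 (adjusted p = 9.84e-05). Mrps7, the counterpart of a bacterial protein that starts assembly of the small subunit head, was found in WT at 672 and 581 normalised counts and in KO at 1031 and 793, a change of 0.53 ± 0.11 (adjusted p = 0.00112). None of the 3 pairs overlapped between WT and KO, as the rule for naming the largest rises required. Mrps2 was found in WT at 1568 and 1569 normalised counts and in KO at 2221 and 2228, with near-equal replicates and a change of 0.50 ± 0.06 (adjusted p = 1.89e-05). The stalk protein Mrpl12 was found in WT at 795 and 681 normalised counts and in KO at 999.6 and 939, a change of 0.40 ± 0.08 (adjusted p = 0.00159). These 5 were called higher under all 22 alternatives. The other 9 were Mrpl32 (0.48), Mrps24 (0.46, in a row shared with Urgcp), Mrpl15 (0.37), Mrpl40 (0.36), Mrps6 (0.30), Mrpl16 (0.26), Mrps30 (0.25), Mrpl43 (0.23) and Mrpl45 (0.21). Within the stalk, Mrpl11 was lower, Mrpl12 higher and Mrpl10 not called (-0.02 ± 0.08), and the calls of Mrpl11 and Mrpl12 held under the 3 other scalings. Mrpl18 was found in WT at 627 and 653 normalised counts and in KO at 593 and 650.1, and its FPKM mean was 217 in WT and 139 in KO, so the deposited tables differ for this gene.

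The KO and ETO changes were tested against each other for each member. The difference between the 2 changes, which have their own controls, was called for 48 members with KO above ETO and for 1 with KO below, against 32.3% and 22.2% of all tested genes. Its median was 0.39, against 0.13 over all genes. This split also moved with the scaling, to 29 and 4 with median-of-ratios or TMM factors and to 19 and 10 with equal total signal. The shares of all tested genes were then 24.62% and 28.08% with median-of-ratios factors and 25.37% and 27.39% with TMM factors. With equal total signal they were 19.13% and 34.21%. The largest differences were those of Mrpl15 (1.43 ± 0.12 (log2 change ± SE, adjusted p = 1.40e-07)), Mrpl40 (1.30), Mrpl12 (1.19), Mrpl50 (1.16), Mrpl18 (1.10) and Mrps12 (1.05). From FPKM the difference was only 0.45 for Mrpl18 and 0.47 for Mrps12, so the place of these 2 depends on the deposited table. Mrpl15, Mrpl40 and Mrpl12 rose in KO and fell in ETO. Of the 58 members lower in ETO, 10 (17.2%) were also lower in KO, 10 (17.2%) were higher in KO and 38 were not called there. Of all tested genes lower in ETO, 14.8% were lower and 28.9% higher in KO, so the share lower is near that of all genes. Mrpl11 and Mrpl34 were lower in both, and by more in ETO, with differences of 0.56 ± 0.11 and 0.74 ± 0.17. For Mrpl22 the difference was -0.09 ± 0.16 (adjusted p = 0.646) and was not called. Over the 77 members the Pearson correlation of KO and ETO changes was 0.13, given as a description of points that share libraries, and over all tested genes it was 0.17. The 2 experiments differ in cell line, agent and duration, which cannot be told apart here.

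**Figure D5:**
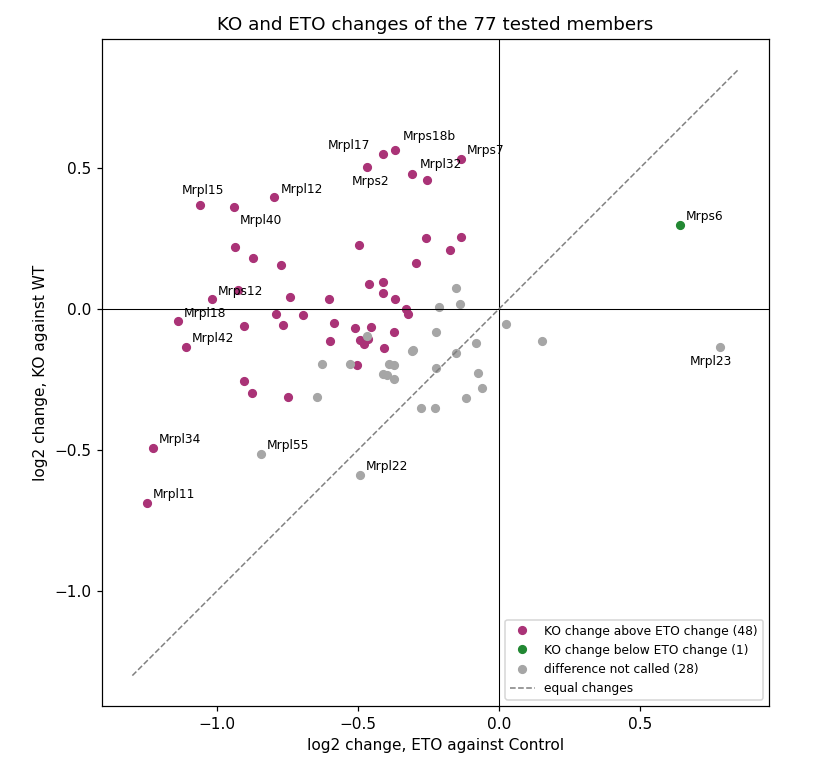
Each point is 1 of the 77 tested members, placed by its log2 change in ETO against Control (horizontal) and in KO against WT (vertical); colour gives the test of the difference between the 2 changes, and the dashed line marks equal changes. Most points lie left of 0 and above the line, 48 of them called so; Mrpl11 and Mrpl34 are low on both axes and Mrps6 is right of the line.

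Levels between members were compared per length, as mean FPKM over the 10 libraries, for the 68 members with a single row of 1 gene. They ranged from 1.16 to 229.5 FPKM, with a median of 56.3 and quartiles of 32.4 and 96.6. Mrpl17 (229.5), Mrpl18 (195.9), Mrpl2 (174.7), Mrps18b (143.8), Mrpl15 (141.5) and Mrps23 (125.9) were the highest. The library ranges of neighbours in this order overlap, for example 148 to 294 FPKM for Mrpl17 and 105 to 286 FPKM for Mrpl18. The lowest were Mrps36 (1.16), Mrpl23 (1.53), Mrpl57 (8.11), Mrpl48 (8.23), Mrps33 (13.5) and Mrpl11 (17.5). The span was over an order of magnitude also without Mrps36, which is not in the ribosome, and the uncertain Mrpl23 and Mrpl48. Mrpl11 was among the lowest members in FPKM and had the largest fall in ETO. Its low place holds for FPKM and not for normalised counts. Control held 1014 and 995 normalised counts of Mrpl11, against 769 and 753 of Mrpl18. Only KO had the reverse order, with 435 and 450.3 for Mrpl11 and 593 and 650.1 for Mrpl18. The order by FPKM depends on the gene lengths behind the deposited values, which were not checked.

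WT and Control, the reference groups of the 2 lines, also differed. This is a description without a test, since line, treatment and experiment cannot be told apart. Both WT libraries were below both Control libraries for 50 members and above for 18, against 40.7% and 39.1% of all tested genes. Mrpl46 was 1.94-fold, Mrpl17 1.90-fold and Mrpl43 1.85-fold higher in Control. Mrpl23 was 3.20-fold and Mrps10 1.91-fold higher in WT. The starting level of members was thus mostly lower in WT, and their sum was 47960 and 47043 normalised counts there and 48332 and 48687 in KO.

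Other genes of mitochondrial translation are given for context. The 5 mitochondrial ribosomal proteins in the list that carry other names were all lower in ETO and higher on release: Dap3 (-0.45 in ETO), Gadd45gip1 (-0.63), Chchd1 (-0.40), Aurkaip1 (-0.31) and Ptcd3 (-1.04, in a row shared with Gm22486). Of 15 translation factors, 11 were lower and 1 higher in ETO, against 34.0% and 26.8% of all tested genes, with Guf1, an elongation factor, at -0.74 ± 0.09 (adjusted p = 5.43e-06), the initiation factor Mtif2 at -0.67, the elongation factor Gfm1 at -0.52 and Lrpprc, which stabilises mitochondrial messenger RNA, at -0.46. The one higher was Mtfmt, which formylates the initiator tRNA, at 0.33 ± 0.13 (adjusted p = 0.0373). Of 23 assembly and ribosomal RNA modification factors, 9 (39.13%) were lower and 0 higher, a share lower that is near the 34.0% of all tested genes. Among these, Tfb1m, which dimethylates the small ribosomal RNA, was at -1.16 ± 0.13 (adjusted p = 1.57e-06), Nsun4 at -0.84, Rbfa at -0.61 and Fastkd2 at -0.54. In KO, 3 factors of translation were higher and 5 lower, and 2 assembly factors were higher and 4 lower, where 24.6% of all tested genes were higher and 13.3% lower, so the counts for assembly factors are no result about that list.

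The row that holds both mitochondrial ribosomal RNAs, with mt-Nd1, mt-Nd2 and several tRNAs, was found in WT at 30658 and 39368 normalised counts, in KO at 68813 and 76646, in Control at 126778 and 124984, in ETO at 24642 and 19556, and in Released at 127206 and 133506. It was lowest in ETO, with a change of -2.52 ± 0.15 (adjusted p = 1.51e-05), and higher in KO than in WT, with 1.06 ± 0.15 (adjusted p = 0.00252). Its reads cannot be split between ribosomal RNA and messenger RNA. Cytosolic ribosomal proteins were lower in ETO for 53 of 82 and higher for 4, with a median of -0.44. In KO, 26 (31.7%) of them were higher and 0 lower, with a median of 0.20. Nuclear-encoded respiratory chain subunits were lower in ETO for 70 of 81 and higher for 1, with a median of -0.67. In KO, 15 (18.5%) of these were higher and 16 (19.8%) lower. Over all tested genes, 34.0% were lower and 26.8% higher in ETO, and 24.6% were higher and 13.3% lower in KO. The difference between these lists and the mitochondrial ribosomal proteins was not tested.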

How the data were processed

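The 10 TruSeq libraries of mouse embryonic stem cell RNA, 2 in each of 5 groups, were read single-end, per the labels' protocols. The submitters' processing notes name TopHat2 2.1.1, SAMtools 1.5, deepTools and mm10. The program that made the gene tables, and whether counting used strand, are not given in the sources used here, so genes that overlap are uncertain. The signal values of the deposited count table, 1 per gene and library per the file headers, step by 1 factor per library, so reads had been divided by such a factor before deposit. With the factor undone, 79.8% to 85.0% of values were whole reads within a tolerance of 0.1 read, too few for a count model. The authors also deposited FPKM values, which were used to compare levels between genes and as an alternative.

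Rows of the same name were summed, and 2 mitochondrial rows listed at 0 in Released replicate 1 were left out of the tests. The 16056 genes that reached 10 normalised counts in at least 2 libraries entered limma 3.58.1 (R 4.3.3), as log2(normalised count + 1) of all 10 libraries with a mean for each group, an intensity trend and robust moderation. The added 1 understates changes of low genes. A gene was called when its two-sided p, adjusted over these genes by the Benjamini-Hochberg method, was under 0.05. The script was tested on simulated data. Tables and figures were made in Python 3.11.15 (pandas 2.3.3, numpy 2.4.6, matplotlib 3.10.9). Gene positions came from GENCODE M21.

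The members, role lists and marker lists were chosen with earlier results of these data known. Named members were, per comparison, the 10 largest called rises and falls without overlap, the 6 highest and lowest FPKM levels, the 6 members whose KO change differed most from the ETO change, and a list of structural landmarks and shared rows. For the largest rises and falls, libraries without overlap were thus a condition of naming and no separate support. Members named because they were not called, and neighbours of members, were chosen after their values were seen. Alternatives were 3 other scalings of the libraries, pseudocounts of 0.5 and 5, no filter or a minimum of 50, FPKM (with 0.1 added), shared rows left out, a fit per experiment, a fit without trend and robust moderation, a replicate block, and leaving out each library.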

Additional observations from a re-analysis of the deposited data

How the results depend on the processing

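The count of members lower in ETO (58) was 44 to 63 and that of members higher in Released than in ETO (60) was 49 to 61 over all alternatives, so both counts moved by less than 1.5 times. Of the calls, 42 of 58 and 45 of 60 were made under every alternative fitted (20 to 22 a member), compared with 4 of 14 lower and 5 of 14 higher in KO and 18 of 48 for the difference between the changes. The cause of the other losses was not tested.

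Counts that moved by more are given as higher and lower members. The shares of all tested genes called also move with the setting. For the 3 other scalings they are given above for KO and for the difference between the changes. In KO (14 and 14) they were 9 and 22 with median-of-ratios or TMM factors, 6 and 35 with equal total signal, and 9 and 9 from FPKM. They were 8 and 4 from the fit per experiment, 8 and 8 without trend and robust moderation, and 13 and 9 without the filter. The fit per experiment takes the spread for this comparison from WT and KO alone. Replicates differed by a median of 0.183 in WT and 0.147 in KO, against 0.105 to 0.120 in the other groups. The part of this spread in the lower counts was not tested. In ETO the 1 higher became 3 under each other scaling, 2 with a pseudocount of 5 or a minimum of 50, and 0 without shared rows. On release the 1 lower became 2 under each other scaling and 0 from FPKM or without shared rows. Between Released and Control (1 and 1) they were 2 and 0 with equal total signal, 1 and 0 with median-of-ratios factors, 7 and 4 from the fit per experiment, 0 and 1 with a pseudocount of 0.5 or without shared rows, and 0 and 0 without the filter, from FPKM, or without trend and robust moderation. The difference between the changes (48 and 1) gave 29 and 4 with median-of-ratios or TMM factors, 19 and 10 with equal total signal, and 0 lower without the filter, from FPKM, without shared rows, or without trend and robust moderation.

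Leaving out each library gave 9 to 14 higher and 5 to 13 lower in KO, 1 to 2 higher and 52 to 62 lower in ETO, 50 to 61 higher and 0 to 2 lower on release, 0 to 2 higher and 0 to 1 lower between Released and Control, and 38 to 49 higher and 0 to 1 lower for the difference. Where 1 library of a group was left, it was assumed to vary like the other groups.

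Same-numbered replicates correlated at -0.04 to 0.08 in their deviations from group means, a range that includes pairs from different experiments. With 2 replicates a group, such low values cannot exclude a pairing by number, and the main fit treated the samples as unpaired. With a replicate block the counts were 16 and 16 in KO, 1 and 62 in ETO, 61 and 1 on release, 2 and 2 between Released and Control, and 49 and 1 for the difference.

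The called values that changed sign were 7, none called in the new direction. The release change of Mrps6 was 0.0558 from FPKM and its difference between KO and ETO changes was 0.1435. With equal total signal the difference was -0.0275 for Mrpl10, -0.0665 for Mrpl28, -0.0280 for Mrpl37, -0.0413 for Mrpl39 and -0.0028 for Mrps34. With 2 libraries a group, small changes of single members are not detectable at this precision.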

Other observations

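The 2 deposited tables gave different changes for few members. Over 67 members with a single row, the log2 ratio of group means from FPKM and from normalised counts differed by a median of 0.04 in KO against WT, 0.03 in ETO against Control and 0.04 in Released against ETO. The difference was over 0.3 for 1 member in KO, for 2 in ETO and for 2 on release. In KO it was Mrpl18, at -0.65 from FPKM and -0.04 from normalised counts. In ETO they were Mrps12, at -0.56 and -1.02, and Mrpl23, at 0.18 and 0.77. On release they were Mrps12, at 0.69 and 1.23, and Mrpl18, at 1.39 and 1.07. These genes were chosen after their values were seen, and the cause of the gap was not tested.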
